A study of Mus musculus with 21 samples.

Results

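Osteopontin (Spp1) and 7 further genes that kidney tubule cells switch on or hold at a higher level when injured (Clu, Lcn2, Havcr1, Krt8, Krt18, Epcam and Sox9) were followed through RNA sequencing libraries of macrophages sorted from mouse kidneys. The members were chosen by symbol, and these 8 of 34236 gene symbols in the count table each came from a single line. All mice were male C57BL/6J, 24 weeks of age per the labels. Stenotic (RAS) kidneys had a cuff placed around the right renal artery and Sham kidneys had the artery exposed without a cuff. From each, live CD45 positive cells were gated, lineage-positive cells (granulocytes bearing Ly6G, and T, B and NK cells) were discarded, and F4/80 and CD64 positive cells were sorted (sort time 5 h per the labels) into CD11chiMϕ (high in CD11b and CD11c), CD11cloMϕ (high in CD11b, low in CD11c) and kidney-resident macrophages (KRM, intermediate in both). CD11chiMϕ and CD11cloMϕ each had 3 Sham and 4 RAS libraries, and KRM had 4 Sham and 3 RAS libraries, 21 in total. Nothing in the labels says that replicates came from separate mice, so p-values measure only the spread between these libraries. The model covers a narrowed artery in adult males of a single strain, and a bulk library averages over all cells that passed the gate.

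Osteopontin is a secreted phosphoprotein that binds integrins and CD44. It is made by cells of the distal nephron, by injured tubule cells and by macrophages, and it draws in and retains leukocytes. Clusterin (Clu) is a secreted chaperone and lipocalin 2 (Lcn2) an iron-siderophore binding protein that neutrophils also store. Kidney injury molecule 1 (Havcr1) is a phosphatidylserine receptor that lets injured proximal tubule cells take up dead cells, and Sox9 is a transcription factor of regenerating tubule. Krt8 and Krt18 pair to build the keratin filaments of simple epithelium, and Epcam is an adhesion molecule of epithelial cells. All but Spp1, Clu and Lcn2 are regarded as epithelial genes of the kidney, so the question was how far their RNA in sorted macrophages moved with RNA of the tubule in general.

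Libraries held from 6891142 to 18592381 assigned counts, with 14607 to 17703 genes above 0, and levels are given as CPM, a gene's counts scaled to the total of its library. Where no count was seen, 3 counts are taken as the most that counting error would allow. In a bulk library fewer cells of a type and less RNA per cell cannot be told apart. Macrophage genes were present in every library: Csf1r, the receptor for the main macrophage growth factor, lay between 493 and 3772 CPM and Emr1, which encodes F4/80, between 100.5 and 1718 CPM. RNA of tubule cells was measured with 5 marker lists that hold none of the 8 genes (proximal tubule, thick ascending limb, distal and connecting tubule, collecting duct, and pan-tubule epithelium, 65 genes in all), and the sum of their CPM is called general tubule RNA. It ranged from 162 to 33429 CPM, and several libraries stood apart. The Sham libraries numbered 3 were rich in proximal tubule RNA, with general tubule sums of 33429 CPM in CD11chiMϕ, 12433 CPM in CD11cloMϕ and 6264 CPM in KRM, against 357 to 1386 CPM in the other 7 Sham libraries. The first of these also had 18.4% mitochondrial counts, against at most 5.02% in any other library, and the lowest sum of macrophage identity genes, 3038 CPM against 4289 to 14127 CPM. KRM RAS replicates 2 and 3 had sums of 14648 and 11093 CPM, made up mainly of RNA from the distal nephron. Their mitochondrial counts were 4.51% and 4.86%, against 1.10% to 1.82% in the other 5 KRM libraries, whose part in the results was not tested, and their summed macrophage identity genes were 7071 and 8484 CPM, against 12545 CPM in KRM RAS replicate 1 and 13469 to 14127 CPM in KRM Sham. KRM RAS replicate 1 also did not correspond between the deposited tables, with a rank correlation over genes of 0.688 between its own columns and 0.908 to 0.948 for every other library. Its counts were closest to the log2 column of KRM Sham replicate 4, at 0.892. That column was also the closest for KRM Sham replicate 1 (0.945 against 0.933 for its own) and the column of KRM RAS replicate 3 for KRM RAS replicate 2 (0.912 against 0.909), so that a closest column does not identify a library, and it is not settled which library that count column holds, and every value given with KRM RAS replicates 2 and 3 left out rests on it. CD11chiMϕ RAS replicates 3 and 4 were closer to each other (chi-square per degree of freedom 5.13) than the other pairs of that group (94.3 to 128), as were KRM RAS replicates 2 and 3 (10.1 against 107 and 136), but both pairs differed by more than counting noise. That does not show that they are separate samples, since repeat preparations of 1 RNA can differ by more than that too, and they were counted separately only because the labels list them as such.

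**Figure D1:**
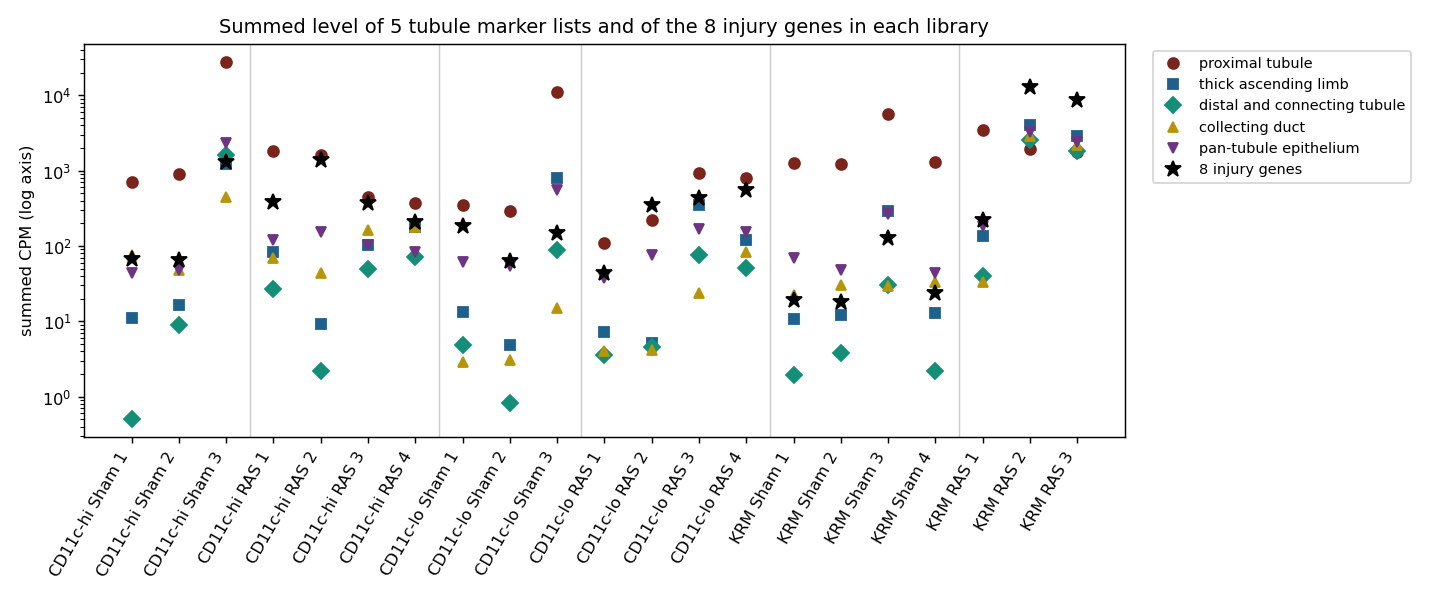
Summed CPM (log axis) of 5 tubule marker lists and of the 8 injury genes in each of the 21 libraries, 1 column per library. The injury genes reached 12787 and 8799 CPM in KRM RAS replicates 2 and 3, where the distal lists lay above the proximal list, and 18.1 to 130 CPM in KRM Sham.

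The genes lie on 6 chromosomes of GRCm38 (GENCODE vM21 annotation): Spp1 on chromosome 5 from 104435118 to 104441050, Clu on 14 from 65968483 to 65981547, Lcn2 on 2 from 32384633 to 32388252, Havcr1 and Sox9 on 11 from 46735080 to 46779578 and from 112782224 to 112787760, Krt8 and Krt18 as neighbours on 15 from 101996698 to 102004482 and from 102028180 to 102032027, and Epcam on 17 from 87635979 to 87651129. The library kit does not mark strand. Counts of Krt8 could therefore include reads of Gm36026, a lincRNA that overlaps 271 bases of it on the other strand, and 1252 bases of Spp1 are shared with the unclassified transcript Gm42793. RefSeq start sites on GRCm38.p6 gave upstream windows of 250 bases for 6 of the 8 genes, while Clu and Sox9 had no entry. The windows of Spp1 and Epcam are printed 5′ to 3′ on the gene's strand, because these were the members whose level relative to general tubule RNA was higher in every RAS than in every Sham library of all 3 populations. Capitals mark matches on either strand to TATAAA, to AACCACA (the RUNX motif) or to AGGAAG (an ETS motif, whose reverse is CTTCCT), and TGANTCA, the AP-1 motif, was also searched. These letters were chosen after the sequences had been seen.
Spp1, chr5:104434861-104435110, plus strand: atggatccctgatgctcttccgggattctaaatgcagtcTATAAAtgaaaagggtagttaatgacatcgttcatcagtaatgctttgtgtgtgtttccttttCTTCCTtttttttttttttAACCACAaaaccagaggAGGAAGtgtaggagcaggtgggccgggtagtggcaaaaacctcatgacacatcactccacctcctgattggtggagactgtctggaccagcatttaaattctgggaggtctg
Epcam, chr17:87635729-87635978, plus strand: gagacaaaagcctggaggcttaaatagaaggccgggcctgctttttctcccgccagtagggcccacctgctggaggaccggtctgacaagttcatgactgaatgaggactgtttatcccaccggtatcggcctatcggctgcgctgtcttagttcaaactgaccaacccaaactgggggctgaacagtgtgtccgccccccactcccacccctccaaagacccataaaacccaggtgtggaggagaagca
The table holds a second Spp1 start inside the gene, whose window (chr5:104435942-104436191) had 1 ETS match and no match to the other 3 motifs. It is not printed, and what follows concerns the start at the gene's 5′ end. The printed Spp1 window held the TATA motif 211 to 206 bases before the start site, the RUNX motif 129 to 123 bases before it and the ETS motif on both strands, while the Epcam window held none of the 4 motifs. Over 32817 mouse promoters of the same length the TATA motif was found in 12.4%, the RUNX motif in 4.39%, the ETS motif in 29.5% and the AP-1 motif in 6.75%. A match is a description of letters and not a bound site, and no match says only that these letters are not in this window.

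Spp1 was the most abundant of the 8 genes per kb of exon in every group, and its level ran over more than 2 orders of magnitude. In KRM it was at 16.1, 14.3, 119 and 20.4 CPM in Sham replicates 1 to 4 and at 169, 8641 and 5878 CPM in RAS replicates 1 to 3. The groups did not overlap, but RAS replicate 1 lay much nearer to Sham replicate 3 than to the other RAS libraries. In CD11chiMϕ Spp1 was at 60.9, 52.5 and 1025 CPM in Sham and at 353, 1292, 323 and 172 CPM in RAS. Here Sham replicate 3 lay within the RAS range and the other Sham libraries below it. In CD11cloMϕ it was at 60.4, 16.1 and 110 CPM in Sham and at 23.9, 286, 356 and 434 CPM in RAS, where 3 RAS libraries lay above all Sham libraries and RAS replicate 1 among them. The medians were ordered KRM RAS (5878 CPM), CD11chiMϕ RAS (338 CPM), CD11cloMϕ RAS (321 CPM), CD11chiMϕ Sham (60.9 CPM), CD11cloMϕ Sham (60.4 CPM) and KRM Sham (18.2 CPM), and each neighbouring pair in this order overlapped. Replicates 2 and 3 of KRM RAS held 74.8% of all Spp1 CPM summed over the 21 libraries.

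**Figure D2:**
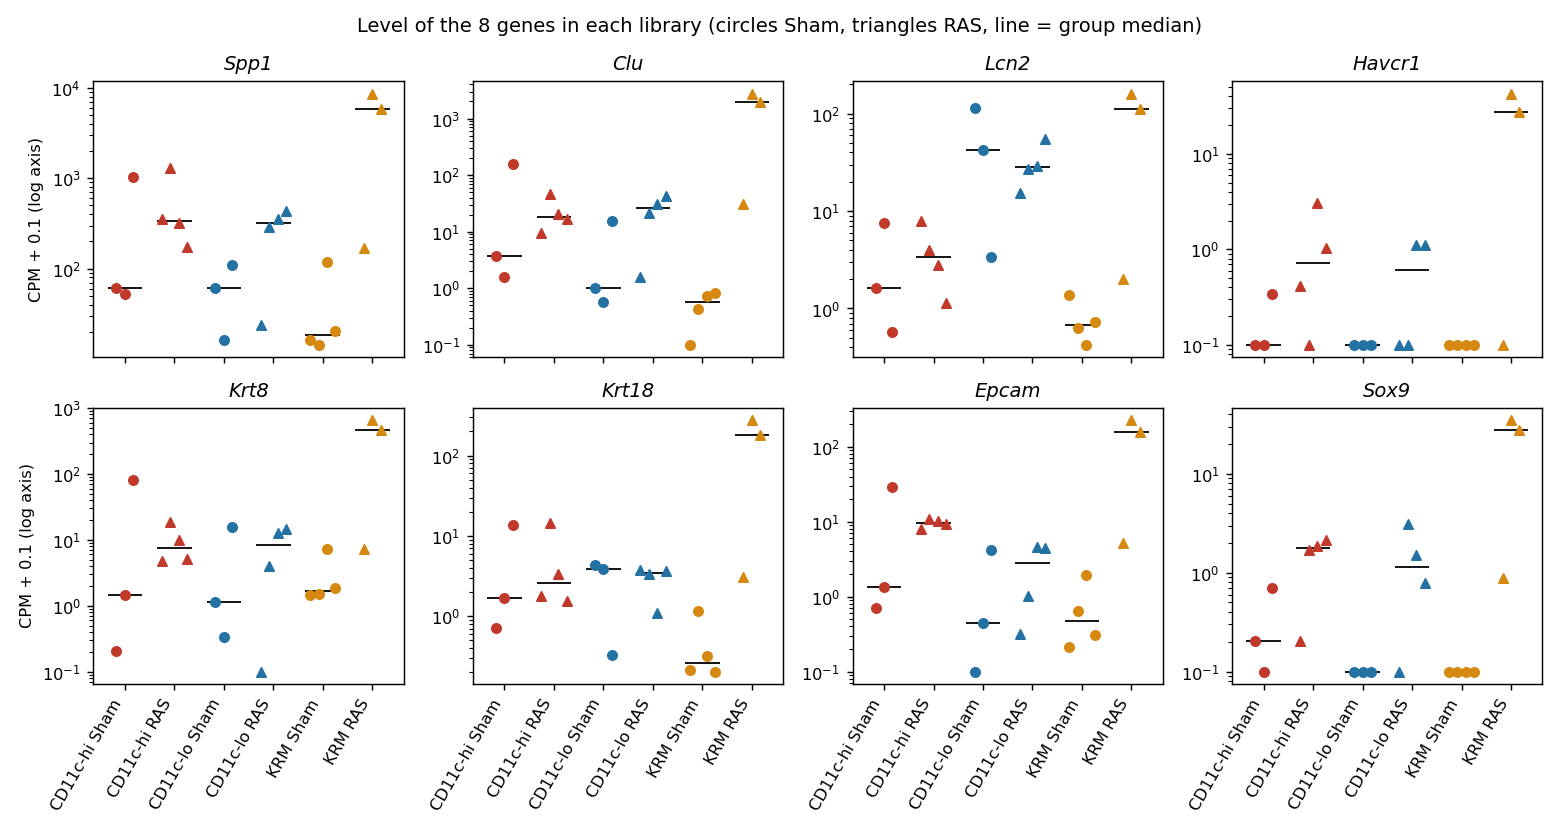
Level of each gene (CPM + 0.1, log axis) in the 21 libraries by group, with circles for Sham, triangles for RAS and a line at the group median. KRM RAS replicates 2 and 3 are the top 2 points of every panel except that of Lcn2, where CD11cloMϕ Sham replicate 1 at 115 CPM lies between them.

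Between RAS and Sham KRM, Spp1 rose by a log2 fold change of 6.81 (SE, the standard error, 1.41, adjusted p = 0.0321, edgeR quasi-likelihood test with Benjamini-Hochberg adjustment over 12852 genes). All 6 of the genes that could be tested in this comparison rose, where 7.77% of all genes tested rose, and in 6 of the 8, Spp1, Clu, Lcn2, Krt18, Epcam and Sox9, every RAS library lay above every Sham library, where 17.1% of all genes tested did so. In CD11chiMϕ and CD11cloMϕ none of the 8 did so, against 4.47% and 3.46% of all genes tested. The 6 calls depended on single libraries. Without KRM RAS replicate 2 or 3, or without KRM Sham replicate 1, 2 or 4, 0 of the 8 genes were called, without KRM Sham replicate 3 there were 6, and without KRM RAS replicate 1 all 8 were. Limma without KRM RAS replicate 1 also called all 8, where it called 52.5% of all genes. With that library it called 18.5%. The edgeR log2 fold changes themselves changed less with any 1 library left out, from 6.12 to 8.09 for Spp1, 11.01 to 12.17 for Clu, 6.39 to 7.65 for Lcn2, 6.16 to 7.85 for Krt8, 7.92 to 9.75 for Krt18 and 6.64 to 8.66 for Epcam. With KRM RAS replicates 2 and 3 both left out, the log2 fold change of Spp1 was 1.87 (adjusted p = 0.678, edgeR), with the lone RAS library taken to vary like the Sham libraries, and those of Lcn2, Krt8, Krt18 and Epcam were 1.34, 1.16, 2.88 and 2.72 (adjusted p from 0.497 to 0.806, edgeR). In CD11cloMϕ the log2 fold change of Spp1 was 2.24 (SE 0.967, adjusted p = 0.554, unadjusted p = 0.0495, edgeR), and in CD11chiMϕ it was 0.41 (SE 1.17, adjusted p = 0.917, edgeR). Without CD11chiMϕ Sham replicate 3 the latter was 3.38 (adjusted p = 0.474, edgeR). In neither of these populations was any of the 8 genes called, nor any gene at all: 0 of 12739 genes passed in CD11chiMϕ (1247 at an unadjusted p under 0.05, 188 by DESeq2, 0 by limma) and 0 of 12301 in CD11cloMϕ (1102, 107 and 0).

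The partners of osteopontin were read from lists of its receptors and of the enzymes and sister proteins around it. Of 10 receptor genes 1 rose in RAS KRM and 0 fell, with a median log2 fold change of -0.11 against 0.02 over all genes. As 7.77% of all genes tested rose, that share is near the background. The gene that rose was Itgb6, the beta subunit of an epithelial integrin, which went up by 3.60 on the log2 scale (adjusted p = 0.042, edgeR), at 10.9, 80.1 and 64.4 CPM in RAS and 1.57 to 10.4 CPM in Sham. Itgb1, the receptor gene with the highest mean over all 21 libraries, stood at 545 to 582 CPM in RAS KRM and 378 to 602 CPM in Sham KRM. Of 10 genes for processing enzymes and relatives only 3 were testable. Fam20c, the kinase that phosphorylates osteopontin, rose by 3.62 (adjusted p = 0.0282, edgeR) and Mmp9 by 2.83 (adjusted p = 0.014, edgeR), while Mmp12, a macrophage elastase that cleaves osteopontin, fell by 1.37 on the log2 scale (adjusted p = 0.0276, edgeR), where 1.94% of all genes tested fell. Mmp12 was at 833 to 1353 CPM in Sham and at 583, 300 and 416 CPM in RAS, so that the libraries with the most Spp1 had the least Mmp12 of the 7.

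Clusterin had the largest log2 fold change of the 6 genes tested in KRM. In KRM it was at 0, 0.322, 0.645 and 0.731 CPM in Sham and at 31.2, 2755 and 1958 CPM in RAS. Every RAS library lay above every Sham library, RAS replicate 1 included. In CD11chiMϕ it was at 3.67, 1.48 and 156 CPM in Sham and 9.30, 46.3, 20.3 and 16.4 CPM in RAS, and in CD11cloMϕ at 0.928, 0.467 and 15.5 CPM in Sham and 1.5, 21.6, 30.2 and 43.0 CPM in RAS. In both populations Sham replicate 3 was above at least 1 RAS library. Clu rose in RAS KRM by a log2 fold change of 11.67 (SE 1.62, adjusted p = 0.016, edgeR), and it was the only 1 of the 8 still called with KRM RAS replicates 2 and 3 left out, at 5.97 (adjusted p = 0.0187, edgeR), a call that rests on the library whose columns did not correspond. Clu was 18.4%, 31.9% and 33.3% of the Spp1 CPM in the 3 RAS KRM libraries and 0 to 15.2% in all others, where the top value belonged to CD11chiMϕ Sham replicate 3.

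Lcn2 did not follow the other genes. In CD11cloMϕ it was at 115, 41.9 and 3.30 CPM in Sham and at 15.1, 27.1, 29.2 and 55.0 CPM in RAS, while CD11chiMϕ held 1.53, 7.52 and 0.477 CPM in Sham and 7.82, 3.92, 2.67 and 1.03 CPM in RAS. In KRM it was at 1.26, 0.537, 0.323 and 0.626 CPM in Sham and at 1.90, 161 and 112 CPM in RAS. All Sham KRM libraries were thus below all Sham CD11cloMϕ libraries, as 24.7% of all genes tested were, and RAS KRM replicate 1 was close to its Sham libraries. Lcn2 was lower in Sham KRM than in Sham CD11cloMϕ by a log2 fold change of -6.40 (SE 1.12, adjusted p = 0.00249, edgeR), the only 1 of 3 testable injury genes called, where 22.4% of all genes were lower. Without KRM Sham replicate 3 or CD11cloMϕ Sham replicate 3, 2 were called. It was also lower in CD11chiMϕ than in CD11cloMϕ of RAS kidneys, at -3.09 (SE 0.561, adjusted p = 0.014, edgeR), 1 of 7 testable genes, where 3.12% of all genes were lower, and with no overlap between the libraries, as for 4.57% of all genes. Without CD11chiMϕ RAS replicate 3 the adjusted p of that difference was 0.0574 (edgeR). Between RAS and Sham, Lcn2 rose in KRM by 7.08 (SE 1.33, adjusted p = 0.0272, edgeR). A list of 9 neutrophil genes, such as S100a9, summed to 223 to 1111 CPM in Sham and 585 to 2000 CPM in RAS CD11cloMϕ, but to 0.72 to 6.58 CPM in all 7 KRM libraries and 5.65 to 174 CPM in CD11chiMϕ. All 4 of the neutrophil genes testable were lower in Sham KRM than in Sham CD11cloMϕ. In KRM RAS replicates 2 and 3, with 161 and 112 CPM of Lcn2, the neutrophil sum was 1.00 and 0.72 CPM. Ly6g, which marks mature neutrophils, was at 0 counts in 17 of the 21 libraries, and the sort discarded Ly6G positive cells. The libraries with Ly6g counts were all of CD11cloMϕ. They held 0.412 CPM in Sham replicate 1 and 0.214, 0.403 and 0.113 CPM in RAS replicates 1, 3 and 4. The part of neutrophil RNA in the Lcn2 of CD11cloMϕ was not tested.

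Havcr1 and Sox9 were near the limit of detection outside KRM RAS replicates 2 and 3. Havcr1 was at 0 counts in 13 of the 21 libraries, among them all Sham KRM, all Sham CD11cloMϕ and KRM RAS replicate 1, and it was at 42.7 and 27.2 CPM in KRM RAS replicates 2 and 3. In CD11chiMϕ it was at 0, 0 and 0.239 CPM in Sham and 0.317, 0, 2.96 and 0.925 CPM in RAS, and in RAS CD11cloMϕ at 0, 0, 1.01 and 1.02 CPM. Sox9 was at 0 counts in 9 libraries, again all Sham KRM and Sham CD11cloMϕ, and at 0.781, 34.7 and 27.6 CPM in RAS KRM. In RAS CD11cloMϕ Sox9 was at 0, 3.00, 1.41 and 0.680 CPM, and in CD11chiMϕ at 0.102, 0 and 0.597 CPM in Sham and 0.106, 1.60, 1.78 and 2.06 CPM in RAS. For both genes the filter on low counts left no test of RAS against Sham in KRM. Set against 3 counts over the whole Sham KRM group, the mean of RAS KRM was at least 359-fold higher for Havcr1 and at least 324-fold higher for Sox9, and against the Sham CD11cloMϕ group the RAS CD11cloMϕ mean was at least 4.57-fold and 11.5-fold higher. Those bounds for KRM come almost wholly from replicates 2 and 3, which held 91.5% of all Havcr1 and 83.7% of all Sox9 CPM over the 21 libraries. Sox9 in CD11chiMϕ differed by 2.57 between RAS and Sham (SE 1.35, adjusted p = 0.53, edgeR).

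The keratin pair was highest in KRM RAS replicates 2 and 3. Krt8 was at 1.37, 1.39, 7.26 and 1.77 CPM in Sham KRM and 7.25, 652 and 460 CPM in RAS KRM, so that RAS replicate 1 was level with Sham replicate 3. Krt18 was at 0.114, 1.07, 0.215 and 0.104 CPM in Sham KRM and 3.01, 275 and 178 CPM in RAS KRM, with no overlap. Both rose, Krt8 by a log2 fold change of 6.84 (SE 1.37, adjusted p = 0.0303, edgeR) and Krt18 by 8.65 (SE 1.51, adjusted p = 0.0249, edgeR). In CD11chiMϕ Krt8 was at 0.102, 1.37 and 81.6 CPM in Sham and 4.75, 18.3, 9.78 and 5.04 CPM in RAS, and Krt18 at 0.612, 1.59 and 13.6 CPM in Sham and 1.69, 14.2, 3.26 and 1.44 CPM in RAS. For Krt8 in this population the RAS libraries lay above Sham replicates 1 and 2 and below Sham replicate 3, and the log2 fold change was -1.63 with that library (adjusted p = 0.706, edgeR) and 3.86 without it (adjusted p = 0.478, edgeR). In CD11cloMϕ Krt8 was at 1.03, 0.233 and 15.7 CPM in Sham and 0, 3.92, 12.4 and 14.6 CPM in RAS, and Krt18 at 4.23, 3.73 and 0.228 CPM in Sham and 3.63, 3.23, 1.01 and 3.51 CPM in RAS. There the library with the most Krt8 had the least Krt18. Reads of keratin genes can be shared with close relatives and pseudogenes, which makes levels as low as these uncertain. Per kb of exon Krt8 exceeded Krt18 in 13 libraries and Krt18 exceeded Krt8 in 8. The ratio was 1.77, 1.74 and 1.89 in RAS KRM, 24.8 and 50.6 in KRM and CD11cloMϕ Sham replicate 3, and 0.046 to 0.18 in CD11cloMϕ Sham replicates 1 and 2.

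**Figure D3:**
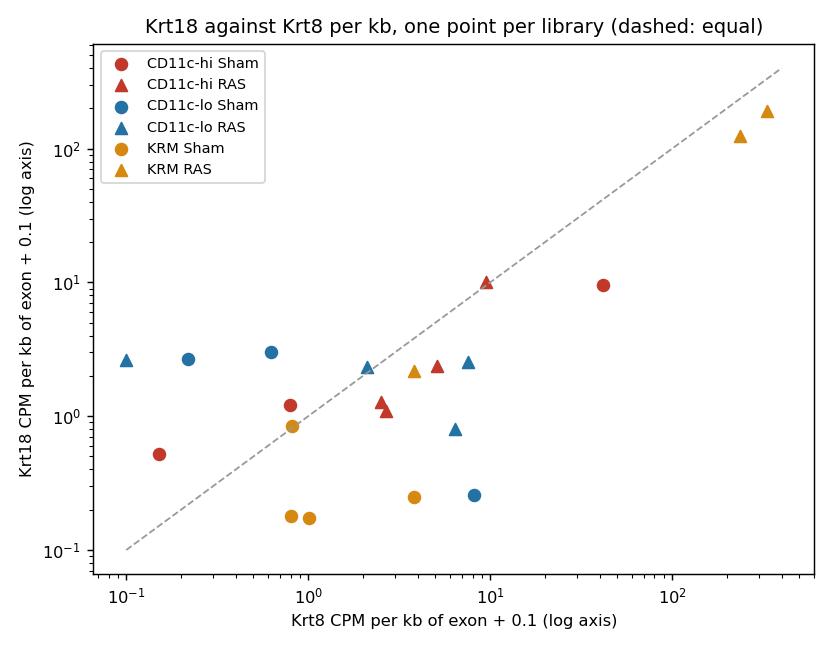
Krt18 against Krt8 in CPM per kb of exon (both + 0.1, log axes), 1 point per library, with a dashed line at equal levels. The 3 RAS KRM libraries lie just below the line, at 1.74 to 1.89 times as much Krt8, while 2 Sham and 1 RAS library of CD11cloMϕ hold Krt18 at 2.53 to 2.94 CPM per kb with little Krt8.

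Epcam was at 0.114, 0.537, 1.83 and 0.209 CPM in Sham KRM and 5.13, 225 and 158 CPM in RAS KRM, with no overlap, and rose by a log2 fold change of 7.27 (SE 1.29, adjusted p = 0.0254, edgeR). In CD11chiMϕ it was at 0.612, 1.25 and 28.5 CPM in Sham and at 7.82, 10.7, 10.1 and 9.15 CPM in RAS, where the RAS libraries were close to each other and Sham replicate 3 was the highest of the 7. In CD11cloMϕ it was at 0, 0.35 and 4.10 CPM in Sham and 0.214, 0.923, 4.43 and 4.42 CPM in RAS, with the groups overlapping. Every RAS CD11chiMϕ library had more Epcam than every RAS CD11cloMϕ library, as 11% of all genes tested had, and the log2 fold change was 1.93 (SE 0.752, adjusted p = 0.139, edgeR).

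Set against general tubule RNA, the 8 genes did not stand in fixed proportion to it. Spp1 was 1.07% to 1.91% of the general tubule sum in Sham KRM, with all 4 libraries close to each other although the sum itself was 6264 CPM in replicate 3 and 1330 to 1386 CPM in the others. In RAS KRM it was 4.42%, 59.0% and 53.0% of the sum. In CD11chiMϕ Spp1 was 7.17%, 5.17% and 3.07% of the sum in Sham and 16.7%, 70.4%, 37.5% and 19.6% in RAS, and in CD11cloMϕ 14.1%, 4.50% and 0.886% in Sham and 14.8%, 92.2%, 22.8% and 36.0% in RAS. In all 3 populations every RAS library thus lay above every Sham library relative to general tubule RNA, although CD11cloMϕ Sham replicate 1 and RAS replicate 1 were nearly level. The Sham replicates 3, with the most tubule RNA, had the lowest Spp1 per tubule RNA in CD11chiMϕ and CD11cloMϕ. On the log2 scale, with 0.5 CPM added to both terms, the difference between RAS and Sham in Spp1 per tubule RNA was 2.65 in CD11chiMϕ, 3.07 in CD11cloMϕ and 4.10 in KRM (exact permutation test, two-sided, p = 0.0571 in each, which is the smallest p that 4 against 3 libraries allow). With any 1 library left out the KRM difference of Spp1 lay between 3.45 and 5.32, and with only RAS replicate 1 kept it was 1.66. Without Sham replicate 3 the difference was 2.31 in CD11chiMϕ, 2.01 in CD11cloMϕ and 4.25 in KRM. Relative to the thick ascending limb list alone the groups overlapped in all 3 populations. Spp1 was 0.833 to 5.53 times that list in Sham and 0.962 to 141 times in RAS CD11chiMϕ, and 0.137 to 4.47 times in Sham and 1.01 to 55.1 times in RAS CD11cloMϕ, and the log2 differences shrank to 1.42, 2.00 and 0.78. Relative to general tubule RNA, the median over all genes tested was 1.12, 1.07 and -2.01, since the tubule sum itself differed between the groups. No such median was computed for the thick ascending limb list alone.

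**Figure D4:**
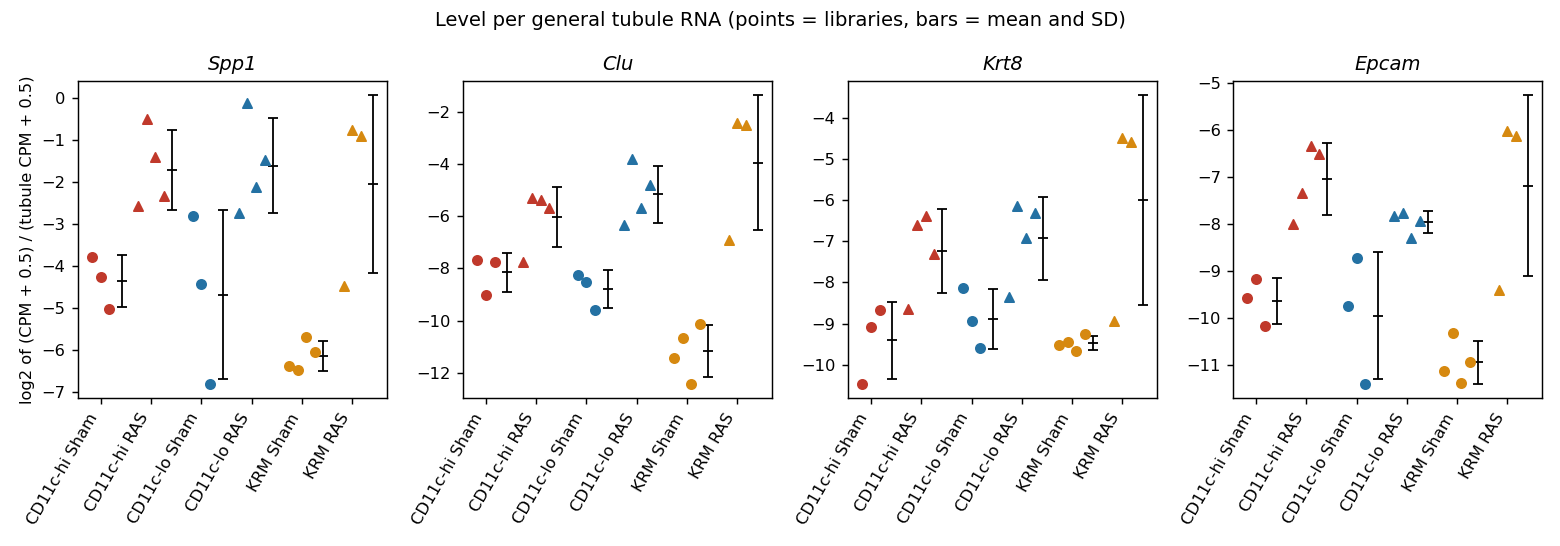
Spp1, Clu, Krt8 and Epcam relative to general tubule RNA, as log2 of the ratio of CPM + 0.5, with 1 point per library and bars for the mean and SD of each group. Spp1 and Epcam of RAS libraries lie above those of Sham libraries in each of the 3 populations, and KRM RAS replicate 1 lies far below the other 2 RAS KRM libraries.

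Of the 8 genes, 3 had every RAS library above every Sham library per tubule RNA in CD11chiMϕ, namely Spp1, Krt8 and Epcam, where 1.32% of all genes tested did so. In CD11cloMϕ there were 3, namely Spp1, Clu and Epcam, where 1.93% of all genes did so, and in KRM there were 4, Spp1, Clu, Krt8 and Epcam, where 1.28% did so. The log2 differences were 2.17 for Krt8 and 2.59 for Epcam in CD11chiMϕ, 3.63 for Clu and 1.99 for Epcam in CD11cloMϕ, and 7.22 for Clu, 3.46 for Krt8 and 3.76 for Epcam in KRM (exact permutation test, p = 0.0571 each, the smallest possible). In KRM these ranged from 6.45 to 8.71 for Clu, 2.70 to 4.93 for Krt8 and 3.18 to 4.87 for Epcam with any 1 library left out, and were 4.25, 0.52 and 1.54 with RAS replicates 2 and 3 both left out. Without Sham replicate 3 the values were 2.53 for Krt8 and 2.33 for Epcam in CD11chiMϕ, and 3.23 for Clu and 1.27 for Epcam in CD11cloMϕ. For Krt8 in KRM the ranges almost touched, as RAS replicate 1 held 0.189% of the tubule sum and the Sham libraries 0.0991% to 0.128%. The other genes that gave a value overlapped on this scale, with exact permutation p-values of 0.114 to 0.857. Havcr1 and Sox9 gave none in KRM and CD11cloMϕ, since all their Sham libraries were at 0 counts and the added 0.5 CPM would set the difference. As a share of the tubule sum Sox9 was 0.0204%, 0.237% and 0.249% in RAS KRM and 0 in all 4 Sham libraries. In Sham kidneys Clu per tubule RNA was lower in KRM than in CD11cloMϕ with no overlap (log2 difference -2.37, exact permutation test, p = 0.0571), as was the case in 2.67% of all genes. These separations depended on the measure of tubule RNA. With only the thick ascending limb list, 0 of 8 genes in CD11chiMϕ, 0 of 6 in CD11cloMϕ and 1 of 6 in KRM, Clu, had groups that did not overlap, and Clu overlapped between the Sham populations. The KRM difference of Lcn2 turned to -0.47 and those of Krt8, Krt18 and Epcam shrank to 0.14, 0.70 and 0.44, while Clu stood at 3.90. Against the distal and connecting tubule list the KRM differences turned negative for all but Clu, which stood at 2.58. They were -0.54 for Spp1, -1.79 for Lcn2, -1.18 for Krt8, -0.62 for Krt18 and -0.88 for Epcam. With the collecting duct list all 6 stayed positive. In CD11chiMϕ Krt8 and Epcam shrank to 0.94 and 1.37 with the thick ascending limb list, and in CD11cloMϕ Clu and Epcam to 2.56 and 0.92. Against the distal and connecting tubule list and the collecting duct list Epcam in CD11cloMϕ turned to -0.15 and -0.50. Lcn2, Krt8 and Krt18 turned negative there on both lists, at -1.21 to -0.19, while Spp1 and Clu stayed positive, at 0.58 to 1.49. In CD11chiMϕ no difference changed sign on these 2 lists. With only the proximal list the groups did not overlap for 2, 4 and 4 genes in the 3 populations, Spp1 and Epcam among them in each. Spp1 was 1.26, 2.15 and 2.01 times the thick ascending limb list in RAS KRM and 0.412 to 1.58 times in Sham KRM, so that the groups overlapped on that list. Against the distal and connecting tubule list Spp1 was 4.2, 3.34 and 3.20 times as high in RAS KRM and 3.80 to 9.29 times in Sham KRM.

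The kind of tubule RNA differed as well. In the Sham libraries numbered 3 the lists of the distal nephron (thick ascending limb, distal and connecting tubule, collecting duct) came to 0.0619 to 0.118 of the proximal list, while in KRM RAS replicates 2 and 3 they came to 4.91 and 3.96 times the proximal list. Umod, the urinary glycoprotein of the thick ascending limb, was at 2252 and 1630 CPM there, Aqp2, the water channel of the collecting duct, at 684 and 468 CPM, and Klk1, a distal tubule kallikrein, at 2121 and 1476 CPM. In CD11chiMϕ Sham replicate 3, by contrast, the whole proximal list was at 27849 CPM, Umod at 494 CPM and Spp1 at 1025 CPM. CD11chiMϕ RAS replicate 2 and CD11cloMϕ RAS replicate 2 had 1292 and 286 CPM of Spp1 with only 9.14 and 5.19 CPM of the whole thick ascending limb list, so that Spp1 was 141 and 55.1 times that list, against 0.137 to 5.53 times in the other 19 libraries. Their sums of 9 fibroblast and pericyte genes, such as Col3a1, were 303 and 410 CPM, the highest of their populations, and 36 to 122 CPM and 9.83 to 158 CPM in the other RAS libraries. Among CD11chiMϕ libraries, RAS replicate 2 also had the highest sum of 9 genes known from lipid-handling macrophages, which are a source of osteopontin. Gpnmb was at 685 CPM there and at 29.7, 116 and 100.5 CPM in the other RAS libraries, and Trem2 at 183 CPM against 17.1 to 60.4 CPM. In CD11cloMϕ RAS replicate 2 these genes were at 15.5 and 42.3 CPM, within the range of its group. The gate on CD45 would remove intact fibroblasts, and the part of fibroblast RNA or of such macrophages in Spp1 was not tested.

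**Figure D5:**
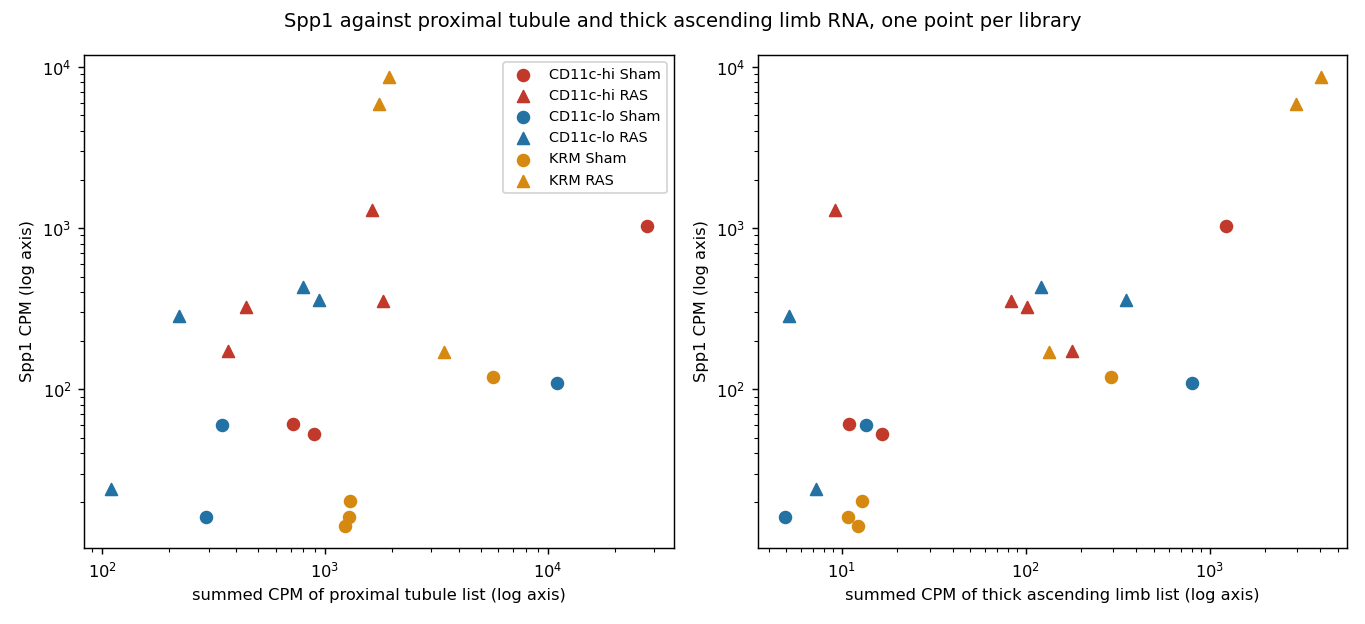
Spp1 CPM against the summed CPM of the proximal tubule list (left) and of the thick ascending limb list (right), log axes, 1 point per library. On the left the 2 top points are KRM RAS replicates 2 and 3 with 1928 and 1755 CPM of proximal RNA, below the 27849 CPM of CD11chiMϕ Sham replicate 3, and on the right 2 RAS libraries with 9.14 and 5.19 CPM of thick ascending limb RNA lie at 1292 and 286 CPM of Spp1.

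Among 18 further genes of tubule injury, 8 of 14 testable rose in RAS KRM and 0 fell, with a median log2 fold change of 4.21 against 0.02 over all genes, of which 7.77% rose and 1.94% fell. Krt19, a keratin of injured and collecting duct epithelium, rose by 8.03 (adjusted p = 0.0157, edgeR), C3, the central complement component, by 3.03 (adjusted p = 0.0165, edgeR) and Cd24a by 6.03 (adjusted p = 0.0231, edgeR). C3 was at 75.4, 255 and 274 CPM in RAS KRM and 15.7 to 28.6 CPM in Sham KRM, but at 350 to 886 CPM in CD11cloMϕ of either kind of kidney. Of the tubule lists, 0 of 21 proximal genes were called in the same comparison, against 2 of 7 thick ascending limb, 3 of 3 distal and connecting tubule, 3 of 5 collecting duct and 5 of 8 pan-tubule genes, all of which rose. Lists of other cells moved as well. Among 9 genes of lipid-handling macrophages 3 rose, Trem2, Fabp5 and Gpnmb, and Trem2 was at 72.9, 62.0 and 71.2 CPM in RAS KRM against 25.0 to 33.9 CPM in Sham KRM, so that replicate 1 was as high as the others. Trem2 was also the only 1 of 7 testable receptors and relatives of the other members that rose. Fibroblast genes rose too, 4 of 6 testable, as did 3 of 6 endothelial and 1 of 1 podocyte genes. Of 7 lymphocyte genes 4 rose, with KRM RAS replicate 1 the highest, as Cd3e, a subunit of the T cell receptor complex, was at 44.0, 6.93 and 5.56 CPM in RAS and 0.322 to 0.94 CPM in Sham. The whole lymphocyte list, however, summed to 224 CPM in replicate 1 but to 53.1 and 47.2 CPM in replicates 2 and 3, below the 86.2 to 123 CPM of Sham KRM. In the same comparison 0 of 3 neutrophil genes were called, 3 of 10 genes of dissociation stress fell and 2 of 12 macrophage identity genes fell, among them Itgax, which encodes CD11c, by 0.86 on the log2 scale (adjusted p = 0.0422, edgeR).

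Between populations of RAS kidneys, KRM had more of each of the 8 genes than CD11chiMϕ on average, and 2 of 8 were called: Clu at a log2 fold change of 5.82 (adjusted p = 0.0382, edgeR) and Krt8 at 5.04 (adjusted p = 0.0436, edgeR), where 4.17% of all genes were higher. Against CD11cloMϕ 2 of 7 were called, Krt18 at 5.56 (adjusted p = 0.0393, edgeR) and Epcam at 5.44 (adjusted p = 0.0463, edgeR), where 3.28% of all genes were higher. These calls rested on single libraries. Without KRM RAS replicate 1 all 8 were called against either population. The share of all genes that edgeR called in that setting is not given here. Limma without that library also called all 8 against CD11chiMϕ and CD11cloMϕ, where it called 16.3% and 25% of all genes. With that library it called 4.08% and 5.24%. By edgeR, against CD11chiMϕ 1 was called without CD11chiMϕ RAS replicate 1 and 0 with any other single library left out, and against CD11cloMϕ 0 were called with any other single library left out. With KRM RAS replicates 2 and 3 both left out none of the 8 was called in either comparison, and 7 of 8 were lower in the remaining KRM library than in CD11chiMϕ by the fit, Havcr1 being at 0 counts there, with Spp1 at -1.91 (adjusted p = 0.562, edgeR). Scaling by library totals alone moved the median of all genes in these comparisons from 0.03 to 0.26 and from 0.06 to 0.27. It left 3 of the 8 genes called in each, where 7.61% and 11.4% of all genes were called. Among Sham kidneys 0 of 5 testable genes were called between KRM and CD11chiMϕ, where 5.13% of all genes were called, with log2 fold changes of -7.09 for Clu to -2.17 for Lcn2 (adjusted p from 0.072 to 0.253, edgeR). Without CD11chiMϕ Sham replicate 3, the library rich in proximal tubule RNA, that of Krt8 turned from -3.42 to 2.09, and the others were -0.38 for Spp1, -2.51 for Clu, -0.32 for Epcam and -2.66 for Lcn2. Without CD11chiMϕ Sham replicate 2 that of Lcn2 was -0.61 and Clu was called (adjusted p = 0.0374, edgeR). With any 1 library left out the values ran from -4.69 to -0.38 for Spp1, -7.61 to -2.51 for Clu and -4.55 to -0.32 for Epcam. Between CD11chiMϕ and CD11cloMϕ of Sham kidneys 0 of 6 were called, where 1.52% of all genes were, but with the replicate number as a block Clu was higher in CD11chiMϕ at 2.79 (adjusted p = 0.0286, edgeR) and Lcn2 lower at -3.88 (adjusted p = 0.0485, edgeR), where 4.92% of all genes were called.

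The change from Sham to RAS was set between populations as an interaction. The increase in KRM exceeded that in CD11chiMϕ by 12.87 for Clu, 8.63 for Krt18 and 6.65 for Lcn2 on the log2 scale (adjusted p = 0.098 for each, edgeR), and over the 8 genes the adjusted p ran from 0.098 to 0.329, so that 0 of 8 were called, as were 0 of 14137 genes in all (3000 at an unadjusted p under 0.05, 1221 by DESeq2, 133 by limma). By DESeq2 7 of the 8 were, where it called 8.64% of all genes. Against CD11cloMϕ the smallest adjusted p was 0.0549 (edgeR) for Krt18, at 8.50, and 0 of 7 were called, where 0.245% of all genes were. DESeq2 called 5 there, and 10.2% of all genes. For Sox9, which is counted among these 7, that contrast could not be estimated, as both Sham groups were at 0. Other edgeR settings on all libraries gave 0 or 1, with 1 in each interaction from a single fit over the 6 groups. Without KRM RAS replicate 1, 7 of the genes were called against CD11chiMϕ and 6 against CD11cloMϕ. Limma without that library called 8 against each, where it called 7.8% and 28% of all genes. By edgeR, without CD11cloMϕ RAS replicate 1, 1 was called against CD11cloMϕ, and with any other single library left out 0 were called.

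Likeness between genes was described by Pearson's r of log2 CPM over the 21 libraries, among 14643 genes that passed the filter on low counts over all 6 groups. These libraries share their tubule content, and KRM RAS replicates 2 and 3 weigh heavily in every r. The 5 genes most like Spp1 were Gstm2 (0.954), Clu (0.95), Khdrbs3 (0.943), Shroom3 (0.933) and Col18a1 (0.932). Clu was led by Fzd6 (0.959), Krt8 by Aif1l (0.971) and Wfdc2 (0.963), Epcam by Wfdc2 (0.957) and Mal (0.953), Sox9 by Igfbp2 (0.965), Havcr1 by Myh11 (0.951) and Krt18 by Pcp4l1 (0.903). Lcn2 was the member least like the rest, with r of 0.234 to Epcam, 0.264 to Krt8, 0.405 to Spp1 and 0.63 to Krt18, and its nearest gene was Rhou (0.914). Among the other 7 genes r lay between 0.679, for Krt8 with Krt18, and 0.95, for Spp1 with Clu.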

How the data were processed

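RNA of 21 sorted macrophage libraries was made with the SMART-Seq v4 Ultra Low Input and Nextera XT kits, which keep no strand, aligned with OSA to mm10 and assigned to Ensembl release 83 genes. The authors deposited estimated counts per gene, of which 9.7% to 14.23% per library were not whole, and a second table of log2 values, quantile normalised TPM on the log2 scale, with 14020 symbols. Counts were rounded, and lines sharing a symbol summed. Genes were kept by edgeR's filterByExpr (minimum count 10, minimum total 15). RAS and Sham, and the populations, were compared with the edgeR 4.0.16 quasi-likelihood test (TMM, R 4.3.3), with Benjamini-Hochberg adjustment over all genes tested and a threshold of 0.05, and the scripts were tested on simulated counts. Members per tubule RNA were compared as log2((member CPM + 0.5)/(general tubule CPM + 0.5)) by a two-sided exact permutation test. Levels are plain CPM, bounds use 3 counts over a group, and all 179 list genes were found, 2 under an older symbol.

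The study's methods give fewer RAS libraries of CD11chiMϕ and CD11cloMϕ than the files hold, and all were used. Replicate numbers were checked for pairing by the correlation of deviations from group means. Same-numbered Sham libraries of different populations correlated at 0.194 to 0.673 over 9 pairs. Those of RAS libraries correlated at 0.0568 to 0.519 and those of Sham with RAS libraries at -0.256 to 0.353. The highest Sham values, 0.555 to 0.673, were all of replicate 3, the libraries rich in proximal tubule RNA. Libraries of different number were not correlated, and the ranges overlap, so it is not settled whether the numbers pair libraries. The values printed come from fits without the block, with the blocked value in the report where it changes a call between Sham populations and otherwise in the closing section. The permutation test does not use the replicate numbers either, so any pairing is ignored there. Alternatives were DESeq2 1.42.0, limma 3.58.1 fitted to the log2 values, other scalings, no filter, 1 fit over all groups, a replicate block, each library left out, other measures of tubule RNA and, chosen after seeing the data, the libraries that stood apart left out together. The members and lists were chosen with earlier results of these data known. Named were the members, in each list the gene with the highest mean CPM and, where calls are given, at most the 3 genes with the smallest p, and the 5 genes most correlated with a member. Emr1 and Ly6g were named after their values were seen. Some genes that this rule names are not reported here. Sequences came from RefSeq, and the authors' own comparison columns were not used.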

Additional observations from a re-analysis of the deposited data

Results flagged for a closer look

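Of 25 sets of 4 values, each a gene or the tubule sum in 1 of 3 groups, 7 had a library far from the others. Chance flags about 1 in 20 sets, but these sets share their libraries and are not independent. Spp1 stood at 1290 CPM in CD11chiMϕ RAS replicate 2, against 172 to 353 CPM in the other 3 RAS libraries. In KRM Sham replicate 3 the general tubule sum was 6260 CPM against 1330 to 1390 CPM in the others, and there Spp1 was at 119 CPM against 14.3 to 20.4 CPM and Krt8 at 7.26 CPM against 1.37 to 1.77 CPM. Krt18 was flagged in other libraries: it was high in CD11chiMϕ RAS replicate 2 (14.2 CPM against 1.44 to 3.26 CPM) and in KRM Sham replicate 2 (1.07 CPM against 0.104 to 0.215 CPM), and low in CD11cloMϕ RAS replicate 3 (1.01 CPM against 3.23 to 3.63 CPM). Groups of 3 libraries, among them RAS KRM, were not tested in this way.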

How the results depend on the processing

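Of the member log2 fold changes recomputed under the alternatives, 855 kept direction and call, 73 lost and 96 gained a call and 63 changed direction. Of the counts of members called and values per tubule RNA, 411 held, 56 moved and 7 changed direction. Apart from the settings that leave out libraries the cause was not tested. Havcr1 and Sox9 were at 0 counts in 13 and 9 libraries, and the part of depth in this was not tested. KRM Sham replicate 3, the library with the most counts (18592381), was at 0 for both.

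With DESeq2 the members called rose to 1 between CD11chiMϕ and CD11cloMϕ in Sham, to 6 for KRM against either population in RAS, and to 7 and 5 in the interactions with CD11chiMϕ and CD11cloMϕ, where it called 10%, 20.8% and 24.4%, and 8.64% and 10.2%, of all genes. Without a filter 5 were called for KRM against CD11chiMϕ in RAS and 1 in the CD11cloMϕ interaction, where 6.66% and 0.338% of all genes were called. Scaling by total library size also gave 1 in that interaction, where 0.555% of all genes were called. A single fit over all groups called 1 for KRM against CD11chiMϕ in Sham, 4 for KRM against CD11cloMϕ and 0 for CD11chiMϕ against CD11cloMϕ in RAS and 1 in each interaction. Of all genes it called 4.38%, 12.7% and 11.9% in these comparisons. In the interactions with CD11chiMϕ and CD11cloMϕ it called 0.11% and 0.4%. That fit also turned Krt18 in CD11chiMϕ, RAS against Sham, to 0.039. Limma on the log2 table called 0 for KRM against CD11chiMϕ and CD11cloMϕ in RAS, where it called 4.08% and 5.24% of all genes. It called 3 in the CD11cloMϕ interaction, where it called 10.4%. Once KRM RAS replicate 1 was left out it called 8 in all 4 of these comparisons and interactions. There it called 16.3% and 25% of all genes in the comparisons and 7.8% and 28% in the interactions with CD11chiMϕ and CD11cloMϕ. It turned the RAS against Sham value in CD11chiMϕ to 0.78 for Clu, 0.69 for Krt8, 0.38 for Krt18 and 1.18 for Epcam, that of Lcn2 in CD11cloMϕ to 0.25, and Clu between CD11chiMϕ and CD11cloMϕ in RAS to 0.15.

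With the replicate number as a block, 3 members were called for RAS against Sham in KRM, 2 for CD11chiMϕ against CD11cloMϕ in Sham, and 1 and 5 for KRM against CD11chiMϕ and CD11cloMϕ in RAS. In the same order 0.338%, 4.92%, 0.572% and 7.81% of all genes were called. The block turned RAS against Sham in CD11chiMϕ to 1.11 for Clu, 2.34 for Krt8, 0.92 for Krt18 and 1.94 for Epcam, and gave 0.21 for Krt8 in KRM against CD11cloMϕ and -0.16 for Krt18 in CD11chiMϕ against CD11cloMϕ in Sham, and 0.37 for Clu in CD11chiMϕ against CD11cloMϕ in RAS. Among the Sham populations the block changed no other call of a member than those printed in the report. RAS and Sham libraries share only a number.

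With KRM RAS replicates 2 and 3 both left out, 1 member was called for RAS against Sham in KRM and 0 for KRM against either population in RAS. KRM against CD11chiMϕ in RAS then gave -1.91 for Spp1, -1.19 for Lcn2, -0.65 for Krt8, -1.03 for Krt18, -1.15 for Epcam and -1.14 for Sox9, and KRM against CD11cloMϕ gave -0.95 for Spp1, -4.28 for Lcn2, -0.36 for Krt8, -0.11 for Krt18 and -0.92 for Sox9. The interaction with CD11cloMϕ turned to -0.41 for Spp1. Without the Sham libraries numbered 3, the calls in Sham were 1 for KRM against CD11chiMϕ, 3 for KRM against CD11cloMϕ and 1 for CD11chiMϕ against CD11cloMϕ, where 12.1%, 46.8% and 15.7% of all genes were called. Krt8 turned to 1.14 and 1.2 in the first pair and Krt18 to -1.92 in the last.

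Per tubule RNA, the thick ascending limb list alone gave -0.47 for Lcn2 between RAS and Sham KRM, and between KRM and CD11cloMϕ in Sham 0.63 for Krt8 and 0.22 for Epcam. The mean of log2 CPM over tubule genes turned the latter comparison to 0.11 for Krt8, and the distal and connecting tubule and pan-tubule lists also turned Krt8 and Epcam positive there. Between RAS and Sham the distal and connecting tubule list turned Spp1, Lcn2, Krt8, Krt18 and Epcam negative in KRM. That list and the collecting duct list turned Lcn2, Krt8, Krt18 and Epcam negative in CD11cloMϕ. The distal and connecting tubule, collecting duct and pan-tubule lists are not part of the counts of values above. No fold change or value per tubule RNA of Havcr1 or Sox9 is given where every library of a group compared was at 0 counts.

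Leaving out each library in turn, the members called ranged from 0 to 8 for RAS against Sham in KRM and for KRM against either population in RAS, 0 to 1 for KRM against CD11chiMϕ and 1 to 2 for KRM against CD11cloMϕ in Sham, 0 to 1 for CD11chiMϕ against CD11cloMϕ in RAS, and 0 to 7 and 0 to 6 in the interactions. In CD11chiMϕ, RAS against Sham, the log2 fold change ranged from -0.62 to 3.38 for Spp1, -1.96 to 3.31 for Clu, -0.15 to 1.86 for Lcn2, -2.25 to 3.86 for Krt8, -1.43 to 2.38 for Krt18 and -0.72 to 3.48 for Epcam. In CD11cloMϕ it ranged from -1.22 to 0.57 for Lcn2, -0.015 to 3.69 for Krt8 and -0.42 to 0.57 for Krt18. In Sham, KRM against CD11chiMϕ gave -4.40 to 2.09 for Krt8, KRM against CD11cloMϕ -1.85 to 0.088 for Spp1 and -1.84 to 2.14 for Krt8, and CD11chiMϕ against CD11cloMϕ -0.18 to 3.57 for Spp1, -1.14 to 6.51 for Clu, -2.99 to 5.69 for Krt8, -1.38 to 1.69 for Krt18 and -0.71 to 6.07 for Epcam. In RAS the last pair gave -0.60 to 0.44 for Clu, -0.22 to 0.82 for Krt8, -0.33 to 1.27 for Krt18 and -0.19 to 1.03 for Sox9. Per tubule RNA the ranges were -0.64 to 3.40 for Lcn2 in CD11chiMϕ, and -1.78 to 3.12 for Lcn2 and -1.03 to 2.80 for Krt18 in CD11cloMϕ.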
